A study of Homo sapiens with 6 samples.

Results

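The septins are a family of GTP-binding proteins, and this account covers 10 of its genes, SEPTIN2 to SEPTIN11, in quiescent hTERT RPE1 cells given combretastatin A4. The members were chosen by name, as the rows of the deposited table whose Ensembl IDs carry these symbols, and all 10 were found among 38900 rows. hTERT RPE1 is an established line of human retinal pigment epithelium immortalised with telomerase. The cells were held at full confluency for 5 days and then given fresh medium for 6 hours with either 100 nM combretastatin A4 (CA4), a small molecule that binds tubulin and depolymerizes microtubules, or 0.1% DMSO, the solvent control. PolyA RNA was sequenced from 3 libraries of each group, all of this 1 line, and the labels do not say whether they came from separate cultures.

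Septins assemble into rod-shaped hetero-oligomers that polymerize end to end into filaments, rings and gauzes. They form on actin stress fibres, on curved membrane, at the cytokinetic furrow and at the base of the primary cilium, and some isoforms bind microtubules directly. By sequence they fall into groups named for SEPTIN2, SEPTIN3, SEPTIN6 and SEPTIN7. Members of a group can replace one another at the same position of a rod, and SEPTIN7 is alone in its group.

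The relation between the 10 genes shows in the bases that encode the P-loop, the stretch of the GTPase domain that wraps around the phosphates of GTP. It is printed here from the longest coding sequence of each gene in GENCODE release 29, 5′ to 3′, because it shows how far paralogues that keep 1 motif have moved apart in the letters that reads are matched to. Capitals mark the bases that differ from those of SEPTIN2.
SEPTIN2: ggtgaatcaggtctaggaaaatcg
SEPTIN4: ggAgaGtcTggCctGggCaaatcC
SEPTIN5: ggtgaGtcaggCctGggGaaGtcC
SEPTIN3: ggCCaGAGTggActGggCaaatcA
SEPTIN9: ggGCaGAGCggCTtGggTaaatcC
SEPTIN6: ggAgaGAcaggtTtGggCaaGtcC
SEPTIN8: ggGgaGAcCggCAtTggCaaatcC
SEPTIN10: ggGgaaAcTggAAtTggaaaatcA
SEPTIN11: ggtgaGAcaggCAtTggCaaatcC
SEPTIN7: ggtgaatcTggATtGggaaaGtcg

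Even in this motif each gene differed from SEPTIN2 at 5 to 11 of 24 bases, SEPTIN7 least and SEPTIN9 most. Over the aligned coding sequences, the 10 pairs within a group were 65.9% to 77.1% identical and the other pairs 58.0% to 66.4%. SEPTIN4 and SEPTIN5 were the closest pair at 77.1%, followed by SEPTIN6 and SEPTIN11 at 75.5%. The longest stretch without a mismatch between any 2 members was 26 bases, reached by 2 pairs. These stretches are printed because they are the longest exact matches a read could find in the coding sequence of another member.
SEPTIN6 and SEPTIN11: aagctggacagtaaggtgaacatcat
SEPTIN3 and SEPTIN9: tacccccagaaggaatttgatgagga

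No stretch of 50 bases was common to the transcripts of 2 members. Sharing with genes outside the 10 was wider in a few cases. SEPTIN5 shares 73.0% of its exon bases with the readthrough gene SEPT5-GP1BB, which runs on the same strand. The readthrough gene read 43.9 to 66.5 normalized counts in DMSO and 25.1 to 76.9 in CA4. SEPTIN8 shares 14.9% of its exon bases with CCNI2 on the opposite strand, but CCNI2 never exceeded 4.49 normalized counts. SEPTIN2 shares 3.14% with HDLBP, also on the opposite strand, which read 20801 to 22572 in DMSO and 26294 to 27114 in CA4; without stated strand, reads from that stretch cannot be told apart. SEPTIN7 and SEPTIN10 have pseudogene copies, and 2.92% and 5.82% of their 50-base words occur in another gene. Over 30 rows of septin pseudogenes, the highest value in any library was 7.85 normalized counts.

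The libraries held 19524936 to 22538004 reads, recovered from the deposited values as described under processing, so that 1 read was worth 0.935 to 1.12 normalized counts. Of 8 fixed markers of retinal pigment epithelium, 5 reached a mean of 10 normalized counts. MITF and OTX2, its transcription factors, carried most of that signal, while TTR was at 0 in every library and TYR stayed at or below 2.9. The 8 summed to 1128 to 1835 in DMSO and 636 to 1026 in CA4, without overlap, although MITF alone overlapped, at 620 to 1085 and 322 to 647. The epithelial keratins KRT8 and KRT18 were abundant and summed to 22512 to 25475 in DMSO and 25978 to 31421 in CA4, also without overlap. KRT8 alone overlapped, at 14118 to 15079 in DMSO and 14922 to 16502 in CA4. Over all tested genes, 27.7% did not overlap between groups. The 3 endothelial markers PECAM1, VWF and CDH5 were present too, summing to 944 to 1427 in DMSO and 1304 to 3224 in CA4, with the top value in CA4 replicate 3. The 3 leukocyte markers summed to at most 10.6, with CD3E at 0, the 3 neuronal markers to 66.6 to 139 and the 2 of skeletal muscle to 17.8 to 40.6. The part of these markers in the septin values was not tested.

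SEPTIN2, SEPTIN9 and SEPTIN11 were the leading septin transcripts of these cells. Levels of different genes are compared here as normalized counts per kilobase of the median protein-coding transcript in GENCODE 29. On that scale SEPTIN2 stood at 4025 ± 196 in DMSO, SEPTIN9 at 2378 ± 345 and SEPTIN11 at 1687 ± 197 (SD, n = 3 each). SEPTIN7 followed at 781 ± 44.3, SEPTIN8 at 702 ± 27.2 and SEPTIN10 at 575 ± 81.1 per kilobase. A second tier lay far below. It held SEPTIN6 at 141 ± 4.52, SEPTIN5 at 72.9 ± 6.33 and SEPTIN4 at 33.9 ± 10.7, and SEPTIN3, a septin of neurons, came last at 0.773 ± 1.1.

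The order of these means was the same in CA4. In DMSO no neighbours in the order overlapped over the 3 libraries, although SEPTIN8 and SEPTIN10 came close, with 671 as the lowest value of the one and 668 as the highest of the other. In CA4 that pair overlapped, and SEPTIN7 and SEPTIN8 nearly touched, at 700.3 and 699.5. The order also depends on transcript length. With the longest protein-coding transcript in place of the median, SEPTIN7 ranked above SEPTIN11 and SEPTIN10 above SEPTIN8 in both groups, and SEPTIN5 above SEPTIN6 in CA4.

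Of the per-kilobase septin total, SEPTIN2 took 38.7% ± 1.99 in the solvent libraries and 38.7% ± 1.40 in the CA4 libraries (SD over 3). SEPTIN6 and its 3 paralogues together gave 29.9% ± 1.54 and 27.6% ± 0.733, the SEPTIN3 group 22.9% ± 3.29 and 25.9% ± 1.60, and SEPTIN7 7.5% ± 0.303 and 6.94% ± 0.257. The libraries of the SEPTIN6 group ran from 28.4% to 31.5% in DMSO and from 26.8% to 28.2% in CA4, without overlap, and the other 3 shares overlapped between groups. These shares are descriptions with no test, and as parts of the same total they are not independent. Over all tested genes, 27.7% had counts that did not overlap between groups. The family's summed normalized counts were 31786 ± 635 in DMSO and 32369 ± 951 in CA4, with overlapping libraries. As a share of all normalized counts they were 0.155% ± 0.00429 and 0.147% ± 0.00578, overlapping as well.

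**Figure D1:**
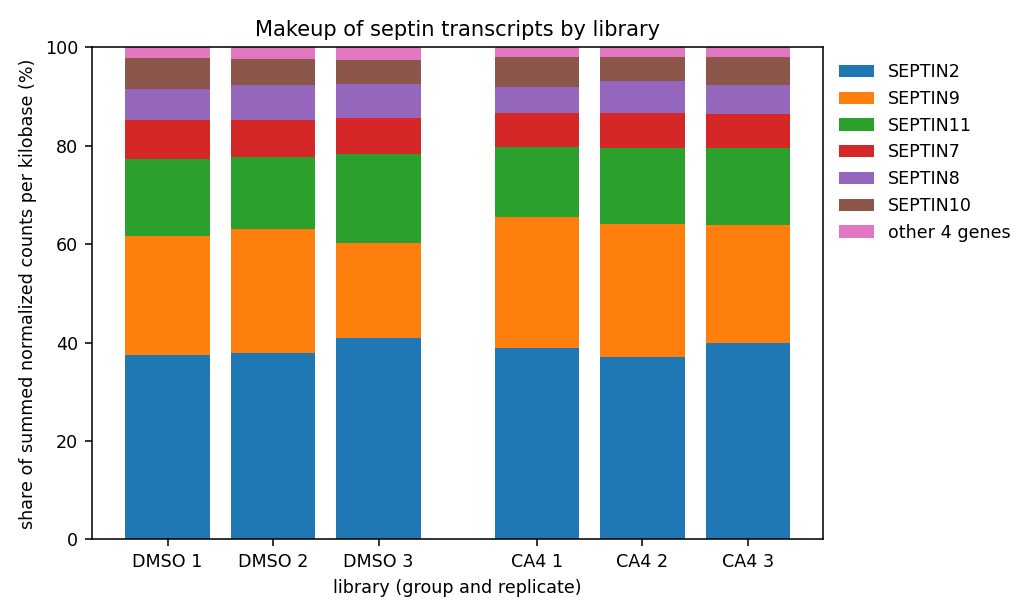
Stacked bars give each septin gene's share, in percent, of the septin total in normalized counts per kilobase, for the 3 DMSO and 3 CA4 libraries; the smallest 4 genes are pooled. SEPTIN2 takes about the same share in both groups, with means of 38.7% in each.

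No septin gene passed the threshold after CA4. A gene was tested where its normalized counts averaged 10 or more over the 6 libraries, which 9 of the 10 members did. Of these, 0 had a limma adjusted p under 0.05, where 4.94% of the 13928 tested genes did, 2.97% higher and 1.97% lower in CA4. With the replicate number as a block and in DESeq2 the count was 0 too, against backgrounds of 17.2% and 11.6%. It was also 0 without the variance trend, without DMSO replicates 2 or 3 and without CA4 replicates 1 or 3, where the background was 0.740%, 0.718%, 0.582%, 1.12% and 1.08%. Over 9 genes each of these backgrounds, the first included, corresponds to few calls or none, so the count of 0 is not read as a result about the septins. At an unadjusted p under 0.05 there was 1 member, SEPTIN6, and edgeR and DESeq2 on recovered reads each also had 1 such member and called 0 after adjustment. The limma background for an unadjusted p under 0.05 was 23%. The median log2 fold change of the 9 was -0.075, against -0.0082 over all tested genes. It moved with the processing, to -0.17 under quantile normalization and -0.18 with the same total. The medians over all tested genes were then -0.0083 and -0.11. Without 1 library the septin median ran from -0.11 without CA4 replicate 2 to -0.038 without DMSO replicate 3. In 7 of the 9 members the estimate was under 0.25 in size, which held for 55.2% of tested genes. Those of SEPTIN6 and SEPTIN4 were larger in size than 72.2% and 66.5% of tested genes. For 7 of the 9 the 95% confidence interval lay within 0.5 of 0, which held for 35.1% of tested genes. For 8 it excluded a 2-fold change in either direction, as it did for 71.7%. That comparison with all tested genes was not matched on expression level.

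**Figure D2:**
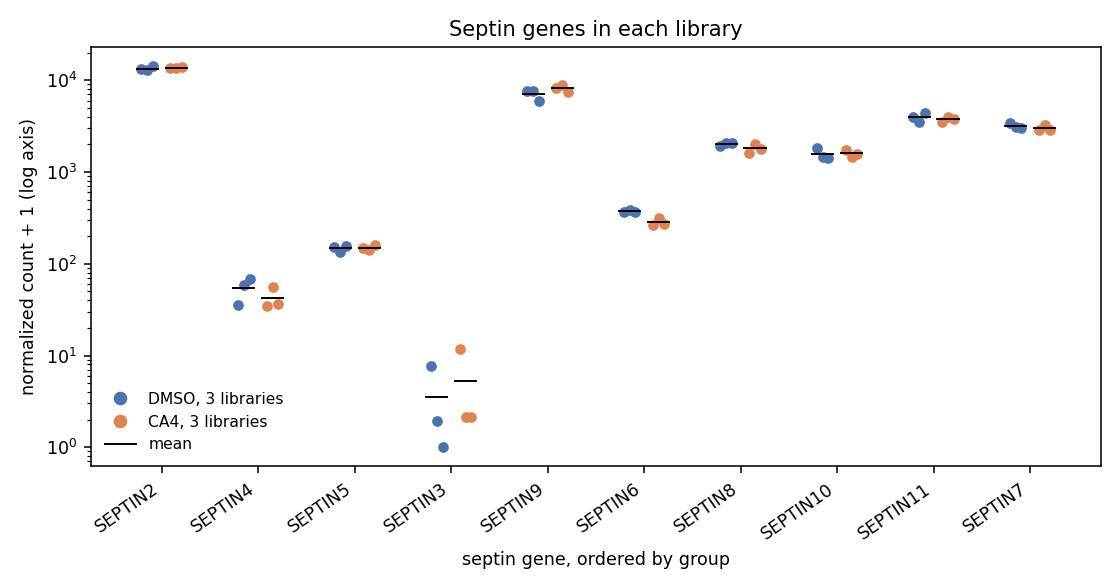
Points give the normalized count plus 1, on a log axis, of each septin gene in the 3 DMSO and 3 CA4 libraries, and bars give means. SEPTIN6 is the 1 tested gene whose CA4 points all lie below its DMSO points, and SEPTIN3, at 0 to 10.6, is the lowest of the 10 genes in every library.

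SEPTIN2, on chr2:241315100-241354027 (GRCh38, plus strand), was the most abundant member of its group here and its protein lies along stress fibres and at the ciliary base. In order of replicate number, as in every sentence of this kind, its normalized counts were 13242, 12868 and 14140 with DMSO against 13525, 13541 and 13777 with CA4. The CA4 libraries all lay within the DMSO range. Its log2 fold change was 0.022 (SE 0.071, 95% CI -0.14 to 0.19, limma adjusted p = 0.890), which bounds the fold between 0.906 and 1.14. That sign is not stable, since it was negative under each of 3 other scalings. Of these, the same 75th percentile and the same total also moved the median of all tested genes, by -0.033 and -0.10.

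The other members of the SEPTIN2 group were scarce. SEPTIN5, on chr22:19714464-19724224, is known from vesicle release in neurons and platelets. It read 153, 133 and 157 in DMSO and 147, 141 and 158 in CA4, again with overlap, and had a log2 fold change of 0.017 (limma adjusted p = 0.966, SE 0.15). Summed with its readthrough gene, an alternative chosen after the data were seen, the value was -0.060 (limma adjusted p = 0.883). SEPTIN4, on chr17:58520250-58540818, is best known for an isoform that promotes apoptosis. Its values of 34.8, 58.0 and 67.4 in DMSO and 33.8, 55.0 and 35.7 in CA4 spread widely in both groups. The interval of its log2 fold change of -0.34, from -1.13 to 0.455, does not bound a change of 2-fold downward (limma adjusted p = 0.603). Single libraries moved the SEPTIN4 estimate, which was -0.61 without DMSO replicate 1 and -0.15 without DMSO replicate 3.

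SEPTIN9, on chr17:77280569-77500596, occupies the position of the SEPTIN3 group in non-neuronal cells and has long isoforms that bind and bundle microtubules. It read 7637, 7684 and 5883 in DMSO and 8226, 8784 and 7414 in CA4. CA4 replicates 1 and 2 lay above all DMSO libraries, and CA4 replicate 3 lay among them. The log2 fold change was 0.21 (SE 0.12, 95% CI -0.077 to 0.499, limma adjusted p = 0.358). DMSO replicate 3, the lowest library, carried much of that estimate, which was 0.084 without it (limma adjusted p = 0.704). SEPTIN3, on chr22:41969475-41998221, had 7, 1 and 0 reads in DMSO and 11, 1 and 1 in CA4 and was not tested. The 0 allows up to 3 reads in that library.

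SEPTIN6, on chrX:119615724-119693370 (minus strand), gave its name to the group whose members sit between the SEPTIN2 and SEPTIN7 positions of the rod. It read 370, 386 and 363 in DMSO and 265, 316 and 270 in CA4, so the CA4 libraries all lay below the DMSO libraries. Among tested genes 13.4% had groups parted in that direction, and among the 9 tested septins 1 did; in either direction the background was 27.7%, against 11.1% of the 9. The log2 fold change was -0.40 (SE 0.12, 95% CI -0.68 to -0.11), a fold of 0.759, with an unadjusted limma p of 0.013 and an adjusted p of 0.106. Of all tested genes, 72.2% had a smaller estimate in size. Without CA4 replicate 3 the log2 fold change was -0.36 (limma adjusted p = 0.256).

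The 3 paralogues of SEPTIN6 were each more abundant than it, with estimates nearer 0; the differences between the estimates were not tested. SEPTIN11, on chr4:76949703-77040384, read 3932, 3512 and 4435 in DMSO and 3493, 3945 and 3803 in CA4. CA4 replicate 1 was the lowest and DMSO replicate 3 the highest, and the log2 fold change was -0.075 (SE 0.10, adjusted p = 0.716). SEPTIN8, on chr5:132750817-132807241, read 1939, 2089 and 2056 in DMSO and 1603, 2021 and 1800 in CA4. Its lowest libraries were from CA4, but CA4 replicate 2 lay among the DMSO libraries. The log2 fold change was -0.17 (SE 0.10, 95% CI -0.41 to 0.066, limma adjusted p = 0.367). The SEPTIN8 estimate was -0.088 without CA4 replicate 1 and -0.25 without CA4 replicate 2. SEPTIN10, on chr2:109542982-109614206, read 1817, 1467 and 1409 in DMSO and 1756, 1443 and 1585 in CA4. Replicate 1 was the highest in both groups, and the log2 fold change was 0.032 (limma adjusted p = 0.911, SE 0.13).

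SEPTIN7, on chr7:35800932-35907105, is the subunit held to be common to the rods of most cells. It read 3376, 3112 and 3032 in DMSO and 2847, 3215 and 2893 in CA4. CA4 replicates 1 and 3 lay below all DMSO libraries and CA4 replicate 2 lay among them. The log2 fold change was -0.089 (SE 0.085, 95% CI -0.29 to 0.11, limma adjusted p = 0.580), a fold bounded between 0.820 and 1.08. Under quantile normalization it was -0.17 and with the same total -0.19, where the medians over all tested genes were -0.0083 and -0.11. The SEPTIN7 estimate was -0.043 without DMSO replicate 1 and -0.14 without CA4 replicate 2. Adding the reads of its pseudogene rows changed no call.

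**Figure D3:**
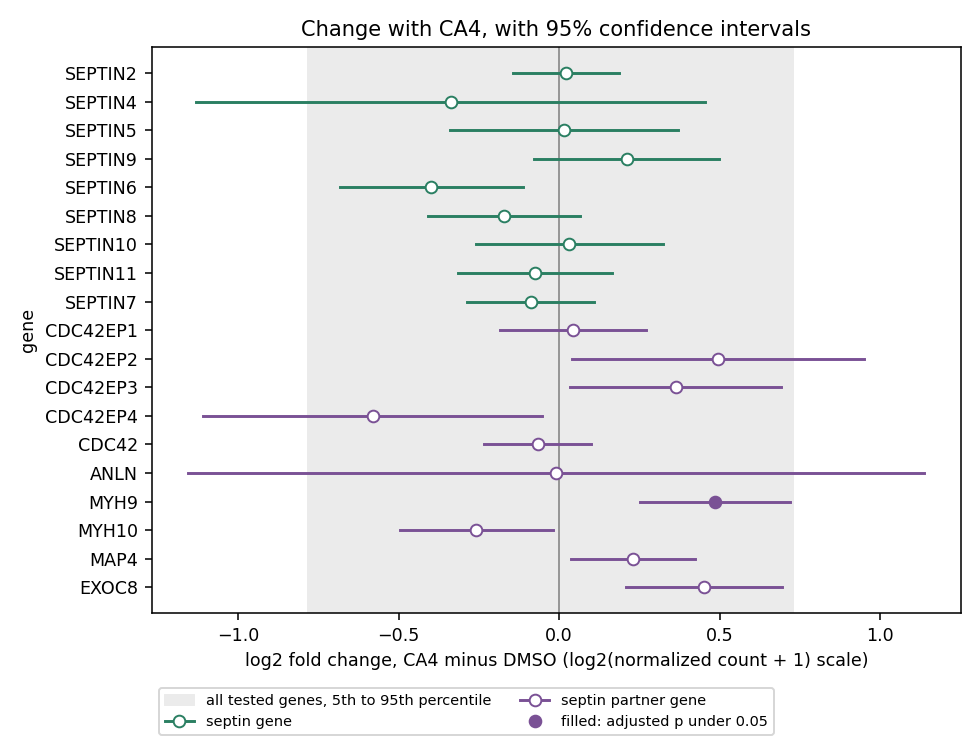
Circles give the log2 fold change (CA4 minus DMSO) with its 95% confidence interval for the 9 tested septins and for 10 partner genes, and the grey band spans the middle 90% of tested genes. Only the circle of MYH9 is filled, which marks an adjusted p under 0.05, and the intervals of SEPTIN2 and SEPTIN7 are among the narrowest.

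The other tested members were also expressed as a ratio to SEPTIN7 within each library, which removes the scaling between libraries. SEPTIN9 stood at 2.26, 2.47 and 1.94 times SEPTIN7 in DMSO and at 2.89, 2.73 and 2.56 times in CA4, and the groups did not overlap. SEPTIN6 stood at 0.11, 0.124 and 0.12 times SEPTIN7 in DMSO and at 0.0930, 0.0984 and 0.0932 times in CA4, parted in the other direction. The log2 differences were 0.30 and -0.31. Both take in the change of SEPTIN7 itself, a log2 fold change of -0.089, and the counts of SEPTIN9 alone overlapped between groups. Each difference had a two-sided exact permutation p of 0.1, the smallest that 3 libraries against 3 allow, and 0.4 after Benjamini-Hochberg adjustment over the 8 ratios. The other 6 ratios overlapped between groups, among them SEPTIN2 to SEPTIN7, at 4.24 ± 0.382 for the solvent and 4.57 ± 0.314 for CA4 (SD over 3). Having 2 of 8 ratios parted is close to the background, since 25.5% of all tested genes were parted in their ratio to SEPTIN7, 17.9% with CA4 above.

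**Figure D4:**
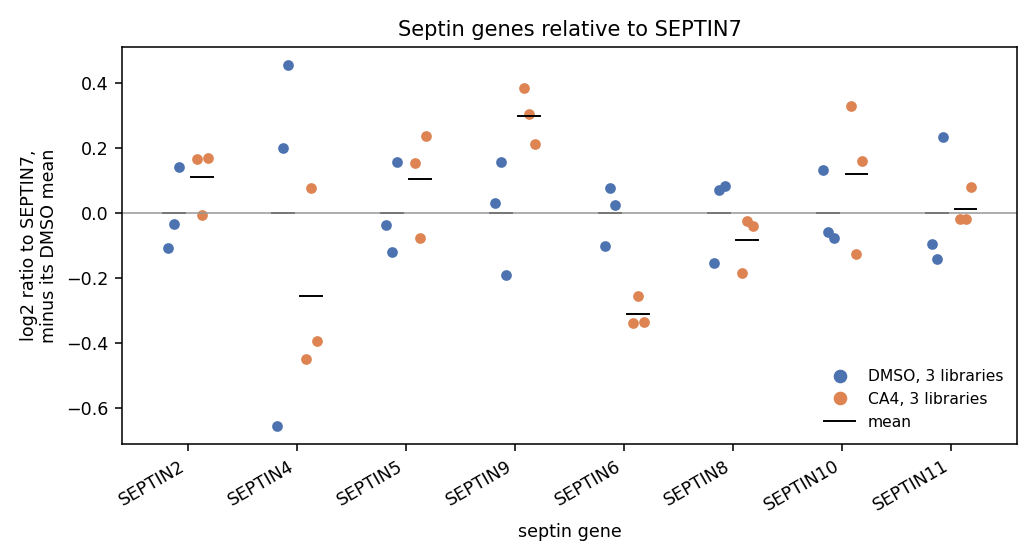
Points give each septin gene's log2 ratio to SEPTIN7 in each library, set to a DMSO mean of 0, with bars for group means. The CA4 points of SEPTIN9 lie above and those of SEPTIN6 below all of their DMSO points, with log2 differences of 0.30 and -0.31.

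The remaining genes of the family were scarce. SEPTIN1 read 22.2, 43.9 and 26.6 in DMSO and 15.5, 24.7 and 33.4 in CA4, a log2 fold change of -0.33 (95% CI -1.29 to 0.64, limma adjusted p = 0.687). SEPTIN14 read 29, 11.2 and 29.4 in DMSO and 31.9, 29.2 and 34.6 in CA4, a log2 fold change of 0.55 (95% CI -0.44 to 1.54, limma adjusted p = 0.485). Leaving out 1 library gave -0.58 to -0.043 for SEPTIN1, nearest 0 without CA4 replicate 1, and 0.12 to 0.78 for SEPTIN14, nearest 0 without DMSO replicate 2. SEPTIN12 had 1 read in all 6 libraries together. Neither tested gene was parted between groups.

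Among 25 genes for proteins that bind, control or work with septins, 24 were tested and 1 passed the threshold, 4.17% against the background of 4.94%. The median log2 fold change of the 24 was -0.063, with a sign that rests on single libraries: it was 0.034 without DMSO replicate 1 and 0.019 without CA4 replicate 3, against -0.14 without CA4 replicate 1. With the same total it was -0.16, where the median over all tested genes was -0.11. The gene that passed, MYH9, encodes the heavy chain of non-muscle myosin IIA, the motor of stress fibres. It rose from 146336, 129194 and 132404 normalized counts in DMSO to 199441, 194422 and 176874 in CA4, without overlap. The log2 fold change was 0.48 with an SE of 0.10 (limma adjusted p = 0.0404). The fold held without any 1 library, at 0.45 to 0.54 on the log2 scale, while the adjusted p crossed the threshold. The call was kept without DMSO replicate 1 (limma adjusted p = 0.0299) and lost in each of the 5 fits without another library (0.0875 to 0.156). The log2 fold change of MYH9 was 0.15 under quantile normalization (limma adjusted p = 0.421). It was 0.45 with the same 75th percentile (limma adjusted p = 0.0457) and 0.38 with the same total (limma adjusted p = 0.0768).

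The Borg proteins, encoded by CDC42EP1 to CDC42EP5, bind septins and the small GTPase CDC42 and organise septin filaments along actin. Of the 4 tested Borg genes, 0 passed and 3 had an unadjusted limma p under 0.05, with estimates in both directions; over all tested genes those shares were 4.94% and 23%. CDC42EP3 read 4031, 4658 and 3934 in DMSO and 4878, 6691 and 4822 in CA4, with all CA4 libraries above DMSO and a log2 fold change of 0.36 (limma adjusted p = 0.180, SE 0.14). CA4 replicate 2 was the highest, and without it the CDC42EP3 estimate was 0.21. CDC42EP2 read 129, 108 and 141 in DMSO and 143, 199 and 194 in CA4, also parted, at 0.49 (limma adjusted p = 0.186, SE 0.20). Over all tested genes 14.3% were parted with CA4 above.

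CDC42EP4, with an estimate below 0, read 286, 299 and 209 in DMSO and 191, 211 and 132 in CA4. CA4 replicate 2 and DMSO replicate 3 overlapped, at 211 and 209, and its log2 fold change was -0.58 (limma adjusted p = 0.182, SE 0.23), or -0.38 without CA4 replicate 3. CDC42EP1, at 3003, 3516 and 3076 in DMSO and 2998, 3367 and 3520 in CA4, overlapped, with a log2 fold change of 0.043 (limma adjusted p = 0.836). CDC42EP5 was listed at 0 in 5 libraries and at 32.9 in CA4 replicate 1. CDC42 itself read 5753 to 6345 in DMSO and 5617 to 5815 in CA4, a log2 fold change of -0.067 (limma adjusted p = 0.631, SE 0.072). The CDC42 estimate was -0.025 without DMSO replicate 1 and -0.17 with the same total, where the median over all tested genes was -0.11.

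Anillin, encoded by ANLN, tethers septins to the contractile ring of dividing cells. It read 2803, 1443 and 1178 in DMSO and 2939, 1980 and 805 in CA4, a spread of more than 2-fold within each group, and its log2 fold change of -0.0081 had an interval from -1.16 to 1.14 (limma adjusted p = 0.995). The 6 genes of the cytokinetic ring and midbody likewise had 0 members past the threshold, 0 with an unadjusted p under 0.05, 0 parted between groups and a median of -0.21, where the backgrounds were 4.94%, 23% and 27.7%. In each of these 6 genes replicate 1 was the highest library of both groups. RACGAP1, for example, read 1192, 677 and 622 in DMSO and 861, 590 and 391 in CA4. With such a spread only a large change could have parted the groups or passed. Of the 8 exocyst genes, whose complex tethers vesicles at the plasma membrane, 0 passed and 2 had an unadjusted p under 0.05, a share near the background of 23%. The exocyst median was -0.091, with 1 gene parted above DMSO and 2 below, where 14.3% and 13.4% of all tested genes were.

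The 5 other partners that were parted between groups without passing are named here after their values were seen. EXOC8, of the exocyst, read 423, 409 and 444 in DMSO and 628, 555 and 564 in CA4, a log2 fold change of 0.45 (limma adjusted p = 0.0535, SE 0.10). Also of the exocyst, EXOC4 read 1571, 1610 and 1494 in DMSO and 1363, 1399 and 1274 in CA4, at -0.21 (limma adjusted p = 0.178, SE 0.082). EXOC7 read 3590, 3540 and 3795 in DMSO and 2885, 3469 and 3213 in CA4, at -0.19 (limma adjusted p = 0.247, SE 0.089), or -0.12 without CA4 replicate 1. The parted exocyst genes went in both directions, as did all tested genes, with 14.3% above and 13.4% below. MAP4, a microtubule-associated protein whose binding to microtubules septins can block, read 14892, 12882 and 13340 in DMSO and 16695, 15359 and 16068 in CA4, at 0.23 (limma adjusted p = 0.156, SE 0.083). MYH10, the heavy chain of non-muscle myosin IIB, read 2435, 2373 and 2269 in DMSO and 2009, 2200 and 1734 in CA4, at -0.26 (limma adjusted p = 0.188, SE 0.10), or -0.17 without CA4 replicate 3. In all, 8 of the 24 tested partners were parted, where 27.7% of tested genes were.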

How the data were processed

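PolyA RNA of 6 libraries was analysed, grouped by the titles in the labels. The values are a signal that the authors deposited as normalized counts, that is, reads per gene divided by 1 scaling factor per library. Per the submitters' processing notes, Trim Galore 0.6.6, FastQC 0.12.1, STAR 2.7.9a, Salmon 1.8.0, DESeq2 1.44.0 and the build GRCh38 were used, with no roles stated. The annotation release and the use of strand are not given in the sources used here. Every value above 0 was a whole multiple of its library's smallest value within 0.01 (100% of values), and division recovered whole reads, which may be rounded estimates.

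The 13928 genes averaging 10 or more normalized counts were tested on log2(normalized count + 1) with limma 3.58.1 in R 4.3.3, with treatment as the only term and a mean-variance trend. This scale understates changes of low genes. Two-sided p-values were Benjamini-Hochberg adjusted over all tested genes (threshold 0.05), and intervals are 95% moderated ones. A 0 allows up to 3 reads; that floor covers counting error only, as PCR copies cannot be told from separate molecules. No set tests were run. The labels do not say that libraries came from separate cultures, so p-values measure the spread between these samples. Alternatives were pseudocounts of 0.1 and 5, no filter or a mean of at least 50, 3 other scalings, 2 other variance models, edgeR 4.0.16 and DESeq2 1.42.0 on recovered reads (643 and 1613 genes past the threshold, against 688), a replicate block, summed pseudogenes and each library left out. Scripts were tested on simulated data. Positions, lengths and sequences are from GENCODE 29 (GRCh38). Named were all 10 members, the other septins, the Borg genes, CDC42, ANLN, partners past the threshold, markers and genes sharing exons with a member; MYH10, MAP4, RACGAP1, EXOC4, EXOC7 and EXOC8 lie outside that rule. Members and lists were chosen with earlier results of these data known.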

Additional observations from a re-analysis of the deposited data

How the results depend on the processing

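The count of septin genes past the threshold was 0 in all 20 alternatives, the replicate block included, some of which called few genes of any kind. Over 19 alternatives each, the SEPTIN6 estimate was below 0 in all (log2 fold change -0.50 to -0.35, adjusted p 0.0504 to 0.276), and that of SEPTIN9 above 0 (0.084 to 0.28, adjusted p 0.0662 to 0.704). The lowest adjusted p of both came from the block. Same-numbered libraries had correlations of deviations from group means of 0.202, 0.159 and 0.0588, each the best for its DMSO library but not all over 0.1, so the libraries were not treated as paired.

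Signs of values near 0 changed. Under quantile normalization, the same 75th percentile and the same total, SEPTIN2 was -0.078, -0.010 and -0.079 and SEPTIN10 was -0.017, -0.00035 and -0.069. SEPTIN5 was 0.12, -0.016 and -0.084 under these 3 and -0.060 with its readthrough gene. CDC42EP1 was -0.043 and -0.058 under quantile normalization and the same total, and ANLN was 0.081 in edgeR and 0.078 in DESeq2. Without 1 library the ranges were -0.0074 to 0.061 for SEPTIN2, -0.056 to 0.063 for SEPTIN5, -0.040 to 0.14 for SEPTIN10, -0.16 to 0.010 for SEPTIN11, -0.0059 to 0.11 for CDC42EP1 and -0.41 to 0.52 for ANLN. Over the 3 other scalings, SEPTIN8 ran from -0.27 to -0.20, SEPTIN9 from 0.11 to 0.18, SEPTIN11 from -0.18 to -0.11 and MAP4 from 0.13 to 0.20. Scaling to the same 75th percentile moved the median of all tested genes by -0.033. Scaling to the same total moved it by -0.10, and 34.8% of called genes were then higher in CA4 against 60.0%.

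The partner count of 1 was 0 with no filter, with the same total and without the variance trend, where 2.65%, 5.76% and 0.740% of all tested genes passed. It was 2 with a mean of at least 50 and in DESeq2, against 6.88% and 11.6%, and 6 with the replicate block, against 17.2%. Without 1 library it was 0 to 1, against 0.582% to 7.14%. The count over all genes, 688, was 103 without the variance trend, 1613 in DESeq2, 2397 with the replicate block and 81 to 994 without 1 library. With the block, MYH9 (adjusted p 0.00337), CDC42EP3, MAP4 and EXOC8 passed as higher (0.0178, 0.0290 and 0.0247) and CDC42EP4 and RACGAP1, a subunit of centralspindlin, as lower (0.0241 and 0.0407), and EXOC8 passed also with a mean of at least 50 (0.0452), quantile normalization (0.0482) and DESeq2 (0.0105). MYH9 did not pass in 9 of 19 alternatives. The cause was not tested. SEPTIN3, with at most 11 reads in a library, was too shallow to test.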
